A study of Homo sapiens with 6 samples.

Results

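Many enzymes, from respiratory complexes to aconitases and DNA helicases, need a cluster of iron and sulfide to work, and mitochondria make these clusters. The core of the machinery measured here was the set of 9 genes ISCU, NFS1, LYRM4, FDX1, FDX2, FDXR, HSCB, HSPA9 and GLRX5, picked by gene symbol and matched to the Ensembl gene identifiers of the deposited tables, which hold 60609 genes. In this machinery NFS1, a cysteine desulfurase stabilized by LYRM4, provides sulfur. The scaffold protein ISCU carries the nascent cluster, and electrons reach the reaction from NADPH through ferredoxin reductase (FDXR) and a ferredoxin. The chaperone pair HSPA9 and HSCB then releases the cluster toward the glutaredoxin GLRX5.

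Libraries of 2 groups, 3 of each, were compared. OCI-AML5, a long-established human cell line from acute myeloid leukemia that was kept in medium with 10% serum and 10 ng/mL of the cytokine GM-CSF, was exposed for 24 hours to 1 µM of the small molecule S767 or to its solvent DMSO. Both groups thus came from a single line under GM-CSF, and the cells were treated in triplicate, but neither the labels nor the methods say whether the replicates were grown separately, so p-values measure the spread between these libraries, which may be technical. The question for this gene set was whether transcripts of the cluster assembly core changed with a compound that was studied for its effect on cellular metals. In bulk RNA, fewer cells of a kind and less RNA per cell cannot be told apart.

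The libraries held 149994700 to 258029564 fragments assigned to genes. SPI1, CEBPA, CD33 and LYZ, markers of the myeloid lineage, were abundant in all libraries, and the summed level of 10 myeloid markers ran from 692 to 1109 TPM (a level scaled for transcript length and library size) under DMSO and from 692 to 1111 TPM under S767. Of these markers 7 were above 1 TPM in every library, and LYZ and SPI1 made up most of the sum, whereas KIT (0.14 to 0.42 TPM), ANPEP (0.02 to 0.09 TPM) and CD34 (0.61 to 2.65 TPM) were low. The highest value of each group came from replicate 1, where LYZ was at 597 TPM under DMSO and 596 TPM under S767 while it stayed between 244 and 264 TPM in the other libraries. Of 9 myeloid markers tested none was called without the block, where 3.53% of all genes were. With the block 1 was called higher and 2 lower, against 16.8% of all genes called and 7.39% called lower. Among these markers were CD33 at 0.11 (adjusted p = 0.0241 in edgeR) and CEBPA at -0.07 (adjusted p = 0.121 in edgeR). Their part in the members' values was not tested. The summed level of 12 markers of T, B, epithelial, stromal, endothelial, liver and red cells was 2.62 to 4.17 TPM and 2.88 to 3.86 TPM in the 2 groups, most of it PECAM1, with CD3E at 0 in every library. Libraries with the same replicate number deviated together, so each estimate was also computed with the replicate number as a block, and that value is given where it changes the call of a member or the count of a list.

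A gene was called when edgeR's quasi-likelihood test gave P under 0.05, the P limit of the study's methods. For the up-regulated genes of its pathway analysis, the study also required a log fold change above 0.4. With that limit added no member would be called in the fit reported, as FDXR reached 0.37 and ISCU 0.10. Of the 9 members, 8 passed the filter on low counts. The exception, FDX2, was measured with RSEM, which shares fragments among overlapping transcripts. Among the 8 members tested by counts, 2 were called without the block, FDXR and ISCU, and both were higher in S767. Over all 20725 genes tested, 3.53% were called and 2.03% were called higher. No member passed an adjusted p (Benjamini-Hochberg) of 0.05 in this edgeR fit, where 0.00483% of genes did. With the replicate block, 3 members were called, namely the same 2 and HSPA9, which was lower, against 16.8% of all genes, and FDXR alone passed the adjusted p, against 3.23% of all genes. The median log2 fold change of the 8 members was -0.02, beside 0.00 for all genes tested.

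**Figure D1:**
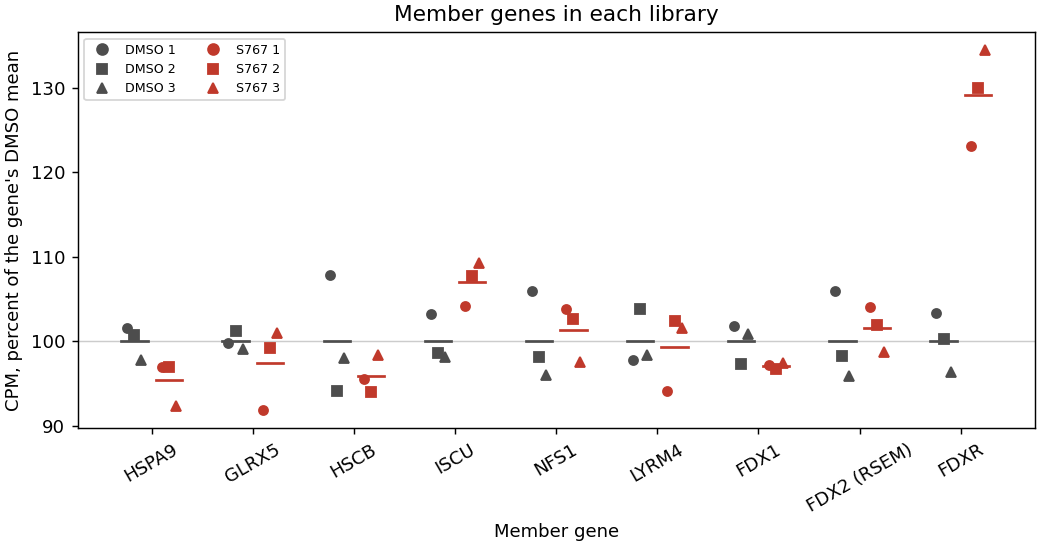
Each point is 1 library (grey DMSO, red S767; circle, square and triangle are replicates 1, 2 and 3), and the y axis gives scaled counts (CPM) as percent of the gene's own DMSO mean, with bars at the group means; FDX2 is from RSEM. FDXR stands at 123 to 134% in S767, while the other members stay between 91.9 and 109% in S767.

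FDXR, the flavoprotein reductase that feeds electrons to the mitochondrial ferredoxins, showed the largest change of the set. It lies on the minus strand at chr17:74862497-74873031 (GRCh38, GENCODE 29). In CPM, the fragment counts scaled to library size, FDXR was at 39.7, 38.5 and 37.0 in DMSO libraries 1, 2 and 3, and at 47.2, 49.9 and 51.6 CPM in S767 libraries 1, 2 and 3. Every S767 library was above every DMSO library. The mean went from 38.4 ± 1.34 CPM (SD, n = 3) to 49.6 ± 2.20 CPM (SD, n = 3), which is 1.29-fold, with a 95% confidence interval of 1.19- to 1.40-fold. On the log2 scale the change was 0.37 (SE 0.05). Its unadjusted P was 5.14e-05 in edgeR, the second lowest of all genes tested, while an exact two-sided permutation of the 6 libraries gave 0.10, the smallest that 3 against 3 allow. After Benjamini-Hochberg adjustment in edgeR the value for FDXR was an adjusted p of 0.377. With the replicate block the estimate was the same, 0.37 (SE 0.04), and the adjusted p was 0.000359 in edgeR. The rise was seen in all 3 pairs, by 0.25, 0.37 and 0.48 on the log2 scale in pairs 1, 2 and 3.

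The same gene was higher in the other readouts of the files. RSEM expected counts gave a log2 change of 0.36 (SE 0.05, adjusted p = 0.462 in edgeR), and TPM went from 30.2 ± 0.920 to 38.5 ± 0.851 (SD, n = 3 each). RSEM reported no uncertainty in assigning FDXR fragments, with a posterior SD of 0 in every library. Its effective length, the mean length from which RSEM can draw fragments, was 1620 to 1627 bases under DMSO and 1613 to 1618 bases under S767. Fragments on the opposite strand numbered 9 to 18 per library.

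The stretch upstream of the start is shown for FDXR and ISCU, the members that were called, and for FDX1, the ferredoxin whose estimate lay just under 0. Each sequence is the 250 bases before the RefSeq start (GRCh38.p14), 5′ to 3′ on the gene's strand, and capitals mark a match to the p53 half-site consensus. Windows were at hand for 8 of the 9 members, 11 windows in all.
FDXR, chr17:74872995-74873244, minus strand: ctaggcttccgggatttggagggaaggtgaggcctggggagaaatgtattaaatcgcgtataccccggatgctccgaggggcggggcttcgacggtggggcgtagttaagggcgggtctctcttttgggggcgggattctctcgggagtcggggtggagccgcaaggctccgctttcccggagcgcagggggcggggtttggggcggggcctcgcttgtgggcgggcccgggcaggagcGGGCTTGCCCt
ISCU, chr12:108562346-108562595, plus strand: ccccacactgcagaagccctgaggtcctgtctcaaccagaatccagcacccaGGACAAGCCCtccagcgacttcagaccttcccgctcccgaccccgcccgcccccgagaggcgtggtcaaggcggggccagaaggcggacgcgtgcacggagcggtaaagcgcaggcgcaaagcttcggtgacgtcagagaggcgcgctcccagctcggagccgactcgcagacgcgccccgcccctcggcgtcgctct
FDX1, chr11:110429698-110429947, plus strand: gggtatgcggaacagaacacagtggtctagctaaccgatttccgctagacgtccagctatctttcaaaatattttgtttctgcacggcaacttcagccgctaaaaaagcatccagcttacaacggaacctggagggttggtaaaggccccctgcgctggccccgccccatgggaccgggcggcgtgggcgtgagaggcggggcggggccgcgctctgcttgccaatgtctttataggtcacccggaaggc
GENCODE 29 places its outermost start further upstream, so the last 37 bases of the FDXR window, 14 of the ISCU window and 65 of the FDX1 window lie within the gene as GENCODE draws it. The windows of HSPA9 and GLRX5, of the second FDXR start and of the third HSCB start lie wholly within it.

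Among the member windows the p53 half-site was matched only in FDXR, at positions -11 to -2 counted from the start, and in ISCU, at positions -198 to -189. The same search on both strands, for a single half-site (RRRCWWGYYY) and not for a pair of them, found it in 5.58% of 34943 promoter windows of this length. FDXR and ISCU were also the only members whose window matched the core of the metal response element, TGCACNC or TGCGCNC, which was found in 24.8% of all windows. Neither match overlapped a match of another motif searched. GGGCGG, the letters of a GC box, occurred in at least 1 window of each of the 8 members, 7 times in LYRM4, 6 times in FDXR and 3 times each in ISCU and FDX1, and in 42.5% of all windows. CCGGAAG, the letters of an ETS site, occurred in FDXR, FDX1 and NFS1, and in 8.48% of all windows. CCAAT occurred 5 times in GLRX5, 3 times in HSCB and once in FDX1, and not in the FDXR or ISCU windows printed, against 32.0% of all windows. TGACNNNGC, the core of the antioxidant response element, was found among members in ISCU only and in 10.9% of all windows, and a palindromic NRF1 site was in no member window and in 1.02% of all. These matches describe letters only, and binding of any factor was not measured.

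ISCU, the scaffold on which the cluster is put together, lies at chr12:108562582-108569384 on the plus strand. Its level was 55.1, 52.6 and 52.4 CPM in DMSO libraries 1, 2 and 3, and 55.6, 57.4 and 58.3 CPM in S767 libraries 1, 2 and 3. The groups did not overlap, but S767 library 1 was only just above DMSO library 1. The fold was 1.07, with a 95% confidence interval of 1.00 to 1.14, and the log2 change was 0.10 (SE 0.04). Its unadjusted P was 0.0433 in edgeR, with an exact permutation p of 0.10 and an adjusted p of 1.00. With the block the adjusted p was 0.107 in edgeR. The within-pair differences were 0.01, 0.13 and 0.15 on the log2 scale. The call was lost with limma-voom, DESeq2, library size alone and no filter on low counts, and on leaving out DMSO library 2, DMSO library 3, S767 library 2 or S767 library 3, where the log2 change was 0.09, 0.08, 0.09 and 0.08. In TPM, ISCU was at 76.7 ± 1.67 under DMSO and 82.1 ± 1.06 under S767 (SD, n = 3 each).

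NFS1 and LYRM4, which form the sulfur donor complex, stayed close to their DMSO levels. NFS1 (chr20:35668055-35699359, minus strand) was at 21.3, 19.8 and 19.3 CPM in DMSO libraries 1, 2 and 3 and at 20.9, 20.7 and 19.6 CPM in S767 libraries 1, 2 and 3, so the groups overlapped. Its log2 change was 0.02 (SE 0.06, adjusted p = 1.00 in edgeR), with a 95% confidence interval of 0.92- to 1.11-fold. The count column held 2936 to 4994 NFS1 fragments per library, fewer than the 4091 to 6930 that RSEM assigned. NFS1 shares 289 exonic bases with AL109827.1 on its own strand and 88 bases with ROMO1 on the other. The RSEM estimate for NFS1 was a log2 change of 0.00 (SE 0.05, adjusted p = 1.00 in edgeR).

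LYRM4, the small protein that stabilizes the desulfurase, lies at chr6:5102593-5260939 on the minus strand. It was at 37.9, 40.3 and 38.2 CPM in the DMSO libraries and at 36.5, 39.7 and 39.4 CPM in the S767 libraries, with overlap between the groups. The log2 change was -0.01 (SE 0.05, adjusted p = 1.00 in edgeR), and the 95% confidence interval was 0.92- to 1.08-fold. The sign of the estimate for both genes turned when single libraries were left out, as given among the dependences on processing.

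The ferredoxins are small electron carriers that FDXR reduces. FDX1 serves mitochondrial cytochromes P450 and lipoylation, and FDX2 is the ferredoxin of cluster assembly. FDX1 (chr11:110429883-110464881, plus strand) was at 16.1, 15.4 and 15.9 CPM in the DMSO libraries and at 15.3, 15.3 and 15.4 CPM in the S767 libraries. S767 libraries 1 and 2 lay just below the DMSO range and S767 library 3 within it, so the groups overlapped in counts, while in RSEM CPM all S767 values (13.98 to 14.07) were below the lowest DMSO value (14.09). Its log2 change was -0.04 (SE 0.05, adjusted p = 1.00 in edgeR), with a 95% confidence interval of 0.89- to 1.06-fold, and all 3 pairs were lower in S767, by 0.07, 0.01 and 0.05. Of all genes tested, 37.8% moved the same way in every pair.

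FDX2 (chr19:10310045-10316015, minus strand) could not be read from the count column. It held 4 to 23 fragments per library there, whereas RSEM assigned 1383 to 2354 with a posterior SD of 6.15 to 11.9. AC011511.1, on the same strand, shares 972 exonic bases with FDX2, which is 70.9% of FDX2's exonic sequence, and AC011511.4 shares 77 bases. AC011511.1 itself had 1 to 6 counts and 68.2 to 271 RSEM expected counts per library. AC011511.4 had 0 to 5 counts and 6967 to 11300 RSEM expected counts per library. A fragment in shared exons is set aside as ambiguous by the counting. Whether these overlaps account for the low count of FDX2 was not tested. RSEM gave FDX2 9.56, 8.86 and 8.65 CPM in the DMSO libraries and 9.39, 9.19 and 8.91 CPM in the S767 libraries, with overlap. The log2 change was 0.02 (SE 0.07, adjusted p = 0.999 in edgeR), with a 95% confidence interval of 0.91- to 1.13-fold. Summing FDX2 with AC011511.1 gave 0.04 (adjusted p = 0.999 in edgeR), an alternative added after seeing the data. That sum left out AC011511.4.

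**Figure D2:**
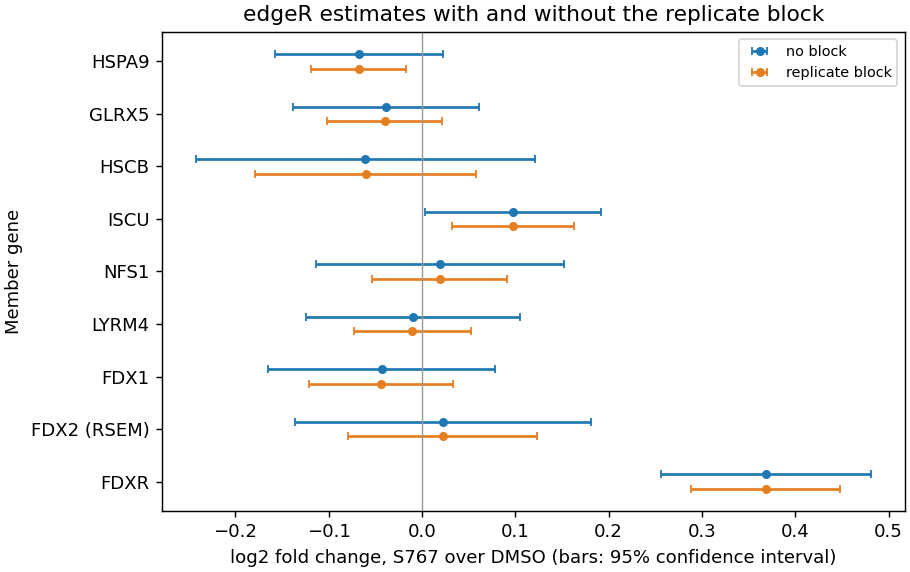
Points are edgeR log2 fold changes of S767 over DMSO (x axis) for each member (y axis), with 95% confidence intervals, without (blue) and with (orange) the replicate block; FDX2 is from RSEM. The FDXR interval without the block starts at 0.26, above the upper ends of all other members, the highest of which is 0.19 for ISCU.

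The chaperones differed in level far more than in response. HSPA9, the mitochondrial heat shock protein also called mortalin, lies at chr5:138553756-138575724 on the minus strand. It was at 817, 811 and 786 CPM in DMSO libraries 1, 2 and 3 and at 780, 780 and 743 CPM in S767 libraries 1, 2 and 3. Every S767 library was below every DMSO library. The fold was 0.95, with a 95% confidence interval of 0.90 to 1.02, and the log2 change was -0.07 (SE 0.04). The unadjusted P was 0.121 in edgeR and the exact permutation p 0.10. All pairs were lower, by 0.07, 0.06 and 0.08, and with the replicate block HSPA9 was called, at an adjusted p of 0.151 in edgeR. That call was lost when pair 2 or pair 3 was left out, with log2 changes of -0.08 and -0.06. In RSEM with the block the change was -0.08 (adjusted p = 0.0987 in edgeR). Of all genes, 7.39% were called lower in the count fit with the block.

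HSCB, the J-domain cochaperone that brings ISCU to HSPA9, lies at chr22:28742031-28757515 on the plus strand. It was at 7.87, 6.87 and 7.15 CPM in the DMSO libraries and at 6.97, 6.85 and 7.17 CPM in the S767 libraries. DMSO library 1 stood above the other 5 libraries, which overlapped. The log2 change was -0.06 (SE 0.08, adjusted p = 1.00 in edgeR), and its 95% confidence interval of 0.85- to 1.09-fold was the widest of the 8 members. Without DMSO library 1 the change was -0.0026, and without DMSO library 2 it was -0.10. HSCB shares 301 exonic bases, 20.6% of its exonic sequence, with CHEK2 on the opposite strand. Counted by strand it had 1021 to 1849 fragments per library, and without regard to strand 540 to 1035, as shared fragments were then set aside. Its RSEM effective length ran from 579 to 683 bases between libraries, and its TPM, which is scaled by that length, ran from 11.7 to 15.5.

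GLRX5, the glutaredoxin that takes over the cluster after HSPA9, lies at chr14:95533503-95544724 on the plus strand. It was at 102, 103 and 101 CPM in the DMSO libraries and at 93.8, 101 and 103 CPM in the S767 libraries. Only S767 library 1 fell below the DMSO range, and the other S767 libraries overlapped it. The log2 change was -0.04 (SE 0.04, adjusted p = 1.00 in edgeR), with a 95% confidence interval of 0.91- to 1.04-fold. GLRX5 shares 391 exonic bases with the antisense gene SNHG10, and fragments on the opposite strand numbered 563 to 881 per library against 15373 to 26162 on the GLRX5 strand.

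Counted by whether the libraries of the groups overlapped, 3 of 8 members were separated, FDXR and ISCU above and HSPA9 below, in CPM from the counts. Beyond FDXR and ISCU the set depended on the readout: in TPM HSPA9 overlapped and GLRX5 was separated as lower, and in RSEM CPM FDX1 was separated as lower. Over all genes tested, 9.21% were separated in CPM from the counts, 5.12% above and 4.08% below. The share of all genes separated in TPM or in RSEM CPM was not computed. The coefficient of variation of the members' CPM among DMSO libraries ran from 1.13% for GLRX5 to 7.07% for HSCB, and was 3.48% for FDXR. The 29.1% rise of FDXR was thus larger than the spread between replicates, and the 7.0% rise of ISCU stood beside a coefficient of variation of 2.83%.

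The levels of the members per transcript length spanned a wide range in DMSO cells. HSPA9 was the most abundant at 321 ± 9.81 TPM (SD, n = 3), above 98.0% of the genes tested in RSEM. GLRX5 followed at 143 ± 0.554 TPM and ISCU at 76.7 ± 1.67 TPM. LYRM4, NFS1 and FDXR came next, at 31.2 ± 0.296, 30.5 ± 2.14 and 30.2 ± 0.920 TPM, and these neighbors did not differ beyond their spread. FDX2 was at 19.1 ± 1.72 TPM, HSCB at 13.6 ± 1.63 TPM and FDX1 at 6.78 ± 0.261 TPM, each below the lowest value of the gene before it. FDX1 lay above 51.1% of the genes tested.

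**Figure D3:**
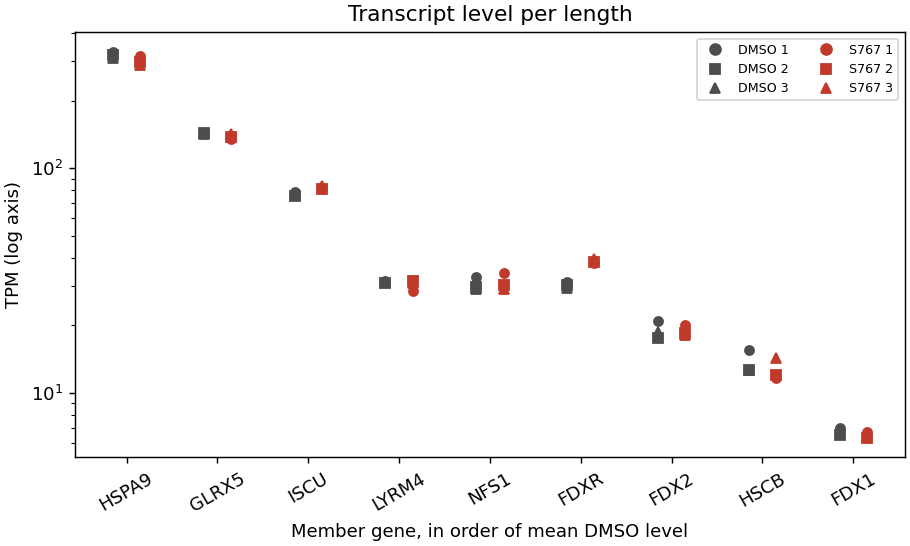
TPM on a log axis for each member in each library (grey DMSO, red S767; marker shape is the replicate), ordered by the mean of the DMSO libraries. HSPA9 leads at 321 TPM and FDX1 is lowest at 6.78 TPM in DMSO cells; FDXR is level with LYRM4 and NFS1 under DMSO and above both under S767.

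The order of the members was the same in S767 cells except that FDXR moved up and that NFS1 and LYRM4, whose values overlapped, changed places. At 37.9, 38.2 and 39.5 TPM, FDXR ranked next after ISCU in S767 cells, above the highest values of NFS1 (34.3 TPM) and LYRM4 (31.5 TPM). HSPA9 remained first at 301 ± 14.4 TPM (SD, n = 3), and FDX1 remained last at 6.49 ± 0.197 TPM. FDXR made up 4.45 to 4.52% of the summed TPM of the 9 genes in DMSO libraries and 5.64 to 6.06% in S767 libraries.

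The balance of reductase to ferredoxin was compared within each library, where scaling between libraries cancels. The ratios of FDXR reuse the FDXR values given above and are no separate evidence of its rise. In TPM, FDXR was at 4.45, 4.65 and 4.26 times FDX1 in DMSO libraries 1, 2 and 3, and at 5.65, 6.03 and 6.14 times FDX1 in S767 libraries 1, 2 and 3. The groups did not overlap. In counts the log2 ratio went from 1.28 ± 0.06 to 1.69 ± 0.06 (SD, n = 3 each), a difference of 0.41, with an exact two-sided permutation p of 0.10, the smallest that 3 against 3 allow, and 0.30 after adjustment over the 3 ratios.

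FDXR was at 1.49, 1.72 and 1.56 times FDX2 in TPM in the DMSO libraries and at 1.89, 2.07 and 2.19 times FDX2 in the S767 libraries, again with no overlap. In RSEM expected counts the log2 ratio of FDXR to FDX2 differed by 0.33 between groups (exact permutation p = 0.10, adjusted 0.15). The ratio of the 2 ferredoxins overlapped between the groups, although FDX1 was lower relative to FDX2 in S767 within all 3 pairs in RSEM expected counts and in TPM (exact sign-flip p = 0.25, the smallest that 3 pairs allow). FDX2 was at 3.00, 2.704 and 2.73 times FDX1 in TPM in the DMSO libraries and at 3.00, 2.92 and 2.81 times in the S767 libraries, and the log2 ratio of FDX1 to FDX2 differed by -0.07 in RSEM expected counts (exact permutation p = 0.20, adjusted 0.20). The count column gave no usable FDX2 ratio, as it held so few FDX2 fragments.

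**Figure D4:**
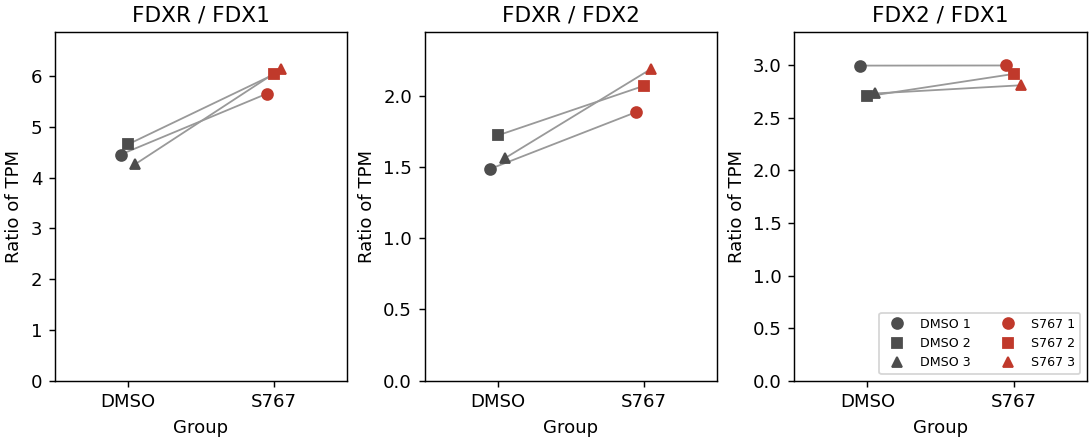
Ratio of TPM (y axis, from 0) in each library by group, with lines joining libraries of the same replicate number. FDXR over FDX1 is 4.26 to 4.65 in DMSO and 5.65 to 6.14 in S767, FDXR over FDX2 is 1.49 to 1.72 and 1.89 to 2.19, and FDX2 over FDX1 overlaps between the groups.

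The other genes of cluster biology were placed in 6 lists, with 70 distinct genes, of which 62 were tested. A single gene of the 62 was called without the block, against 3.53% of all genes, and the log2 changes ran from -0.12 to 0.19 with a median of 0.01. None of the 62 changed by as much as FDXR. With the block 7 were called, against 16.8% of all genes, and 2 passed the adjusted p in edgeR, against 3.23%.

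The partners of the assembly core include the acyl carrier protein NDUFAB1, the nucleotide exchange factors GRPEL1 and GRPEL2 and the mitoferrins SLC25A28 and SLC25A37, which import iron. All 6 listed were tested and none was called without the block (median -0.02). SLC25A37 was at 196 ± 9.77 CPM under DMSO and 188 ± 9.70 CPM under S767 (SD, n = 3 each), and in the count fit was called as lower only with the block (adjusted p = 0.291 in edgeR). GRPEL2 had a log2 change of -0.04 (adjusted p = 1.00 in edgeR). The 7 late delivery factors, which pass clusters on to mitochondrial enzymes, held no call with or without the block (median -0.01), and the genes with the lowest P values, BOLA3 and IBA57, had log2 changes of 0.06 and -0.07 (adjusted p = 1.00 for both in edgeR).

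For export and cytosolic assembly, 11 of 13 genes were tested and none was called without the block (median 0.01). The cytosolic glutaredoxin GLRX3 was at 105 ± 1.82 CPM under DMSO and 99.3 ± 1.93 CPM under S767 (SD, n = 3 each), a log2 change of -0.07 that in the count fit was called only with the block (adjusted p = 0.114 in edgeR), while in RSEM it was called, just under the limit, without the block too. CIAPIN1, an electron transfer protein of cytosolic assembly, had a change of -0.05 (adjusted p = 1.00 in edgeR). Among genes listed as ferredoxin clients or their close partners, 5 of 10 were tested and none was called with or without the block (median 0.02), and the 5 not tested were cytochromes P450 below the filter on low counts. COX15, the heme A synthase, and COX10, which makes its substrate heme O, had log2 changes of 0.03 and 0.02 (adjusted p = 1.00 for both in edgeR).

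Among mitochondrial iron-sulfur proteins, 14 of 15 were tested and none was called without the block (median 0.01). FECH, the last enzyme of heme synthesis, had a log2 change of 0.09 and in the count fit was called only with the block (adjusted p = 0.162 in edgeR), and SDHB of respiratory complex II had 0.05 (adjusted p = 1.00 in edgeR). Among 20 cytosolic and nuclear iron-sulfur proteins, all tested, 1 was called without the block and 4 with it, all 4 higher (median 0.02). The single call was EXO5, a nuclease of DNA repair, at 7.06 ± 0.327 CPM under DMSO and 8.05 ± 0.183 CPM under S767 (SD, n = 3 each), a log2 change of 0.19 (SE 0.07, adjusted p = 1.00 in edgeR; 0.0769 with the block). With the block 2 passed the adjusted p in edgeR, namely ACO1, the cytosolic aconitase that also acts as iron regulatory protein, at 0.12 (adjusted p = 0.0412), and the DNA helicase BRIP1 at 0.13 (adjusted p = 0.0306). Neither was called without the block in the count fit.

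**Figure D5:**
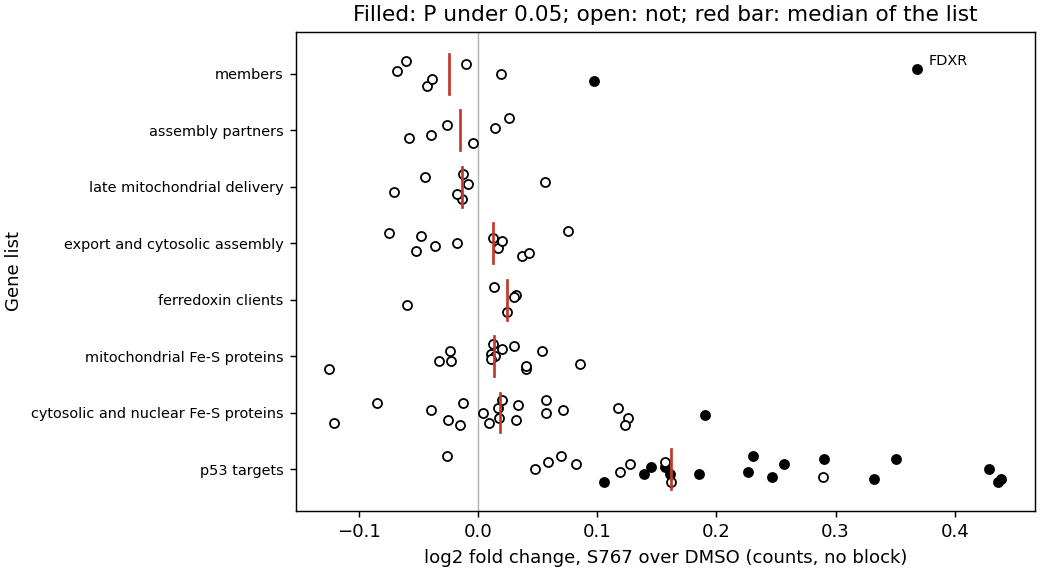
Each point is a tested gene, with its log2 fold change of S767 over DMSO without the block on the x axis and its list on the y axis; filled points have P under 0.05 and red bars are list medians. The 62 genes of cluster biology outside the core lie between -0.12 and 0.19, left of FDXR at 0.37.

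FDXR is also known as a target of the transcription factor p53, so its value was set beside 26 other p53 targets, a list written with results from these libraries known and thus no independent evidence. All 26 were tested, 16 were called higher and none lower without the block, against 2.03% of all genes called higher, and the median log2 change was 0.16. With the block 23 were called, all higher, and 18 passed the adjusted p in edgeR, against 16.8% and 3.23% of all genes; CDKN1A (0.30, adjusted p = 0.000448) and TNFRSF10B (0.12, adjusted p = 0.0146) were among those called only then. FDXR, at 0.37, was below 3 of them, FAS (0.44), PHLDA3 (0.44) and EDA2R (0.43), and above the other 23. DDB2, of nucleotide excision repair, was at 63.2 ± 2.33 CPM under DMSO and 77.3 ± 1.21 CPM under S767 (SD, n = 3 each), a log2 change of 0.29 (adjusted p = 0.377 in edgeR; 0.000289 with the block), and SESN1 rose by 0.35 (adjusted p = 0.837; 0.000299 with the block). Of the other members, none is in this list. Whether p53 raised FDXR was not tested. No list was made for the metal response element, whose core the FDXR window also matched.

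Over the 6 libraries, the genes whose log2 CPM followed FDXR most closely among 9601 genes with a mean log2 CPM of at least 3 were RNF14 (Pearson r = 0.991), PLPBP (0.990), VPS8 (0.988), CYRIA (0.985) and MOK (0.985). Their log2 changes ran from 0.07 for RNF14 to 0.30 for CYRIA. For ISCU they were GIMAP2 (0.996), PPCS (0.990), ATP5PO (0.989), DERA (0.983) and DGLUCY (0.975). None of these is a member or belongs to the cluster lists. Between FDXR and ISCU themselves r was 0.940. These values rest on 6 points that share group and replicate, and are descriptions of likeness in these libraries.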

How the data were processed

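Poly(A) RNA of 6 OCI-AML5 samples was sequenced by the study's authors as stranded libraries. Per the submitters' processing notes, reads were mapped to GRCh38 with STAR 2.7.1a and quantified with RSEM 1.2.28. The study's methods name another version of RSEM. The annotation release is not given in the sources used here. The deposited counts per gene come in 3 columns (either strand, forward, reverse), of which the reverse strand, where the fragments fall, was used. Fragments in the 4 summary lines (20.3%) were left out. The deposited RSEM tables give expected counts (rounded here), TPM and, per gene, an effective length and a posterior SD (other quantities made by the authors' run of RSEM). No authors' comparison was used.

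Counts were tested with edgeR 4.0.16 (R 4.3.3; TMM scaling, filterByExpr with a minimum count of 10, quasi-likelihood test, Benjamini-Hochberg adjustment over all genes tested), with no block, since the study's methods name none. CPM are TMM-scaled. FDX2 failed the filter on low counts and was taken from RSEM. The 3 ratios were compared by exact two-sided permutation of the libraries. Alternatives used limma 3.58.1, DESeq2 1.42.0, other scalings and filters, RSEM, log2(TPM + 1), log2(TPM + 0.1), and leaving out libraries. The fits were tested on simulated data.

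Replicate numbers paired the libraries, as judged from the values: over 6191 genes with a mean log2 CPM above 5, deviations from group means correlated at 0.779, 0.872 and 0.754 between libraries of the same number and at most at -0.241 otherwise. Deviations cancel within each group, so negative values between different numbers follow from positive ones of the same number and are no separate evidence. No libraries were repeats of each other (chi-square per gene of at least 15.2 for every pair). Depth was 149994700 to 258029564 fragments, and each member tested by counts had at least 1021 counts in every library (HSCB the lowest).

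The members and lists were chosen with earlier results of these data known. All 9 members are described; a list gene is named with P under 0.05, with a blocked adjusted p under 0.05, or as 1 of the 2 lowest P values of its list, and of the p53 targets examples are given. A gene of the assembly partners was left out of that list and its counts and is not reported here. For members with P under 0.05, the 5 genes most alike are named. Positions and shared exonic bases are from GENCODE 29, and promoter sequences from RefSeq (GRCh38.p14). Of the 60609 gene identifiers deposited, 41779 had the same version in GENCODE 29, so the exons used in the counting may differ.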

Additional observations from a re-analysis of the deposited data

How the results depend on the processing

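FDXR was higher, with P under 0.05, in all 25 settings run, and its log2 fold change ran from 0.31 to 0.43. The count of members called, 2 with TMM, was 1 (FDXR) with limma-voom, DESeq2, library size alone and no filter on low counts, 1 to 2 on leaving out single libraries and 1 to 3 with the block on leaving out pairs. The count past the adjusted p, 0 in the fit reported, was 1 (FDXR) with DESeq2, with no filter, and with the replicate block in edgeR, limma-voom, DESeq2, RSEM or library size alone. It was 0 on leaving out any single library and 1 to 2 with the block on leaving out pairs, 2 (FDXR and ISCU) without pair 1. HSPA9 was lower in all 25 settings and had P under 0.05 in 6, all with the block. The adjusted p of FDXR ran from 2.66e-17 to 1.00 over the settings. The median of the members, -0.02, moved by less than its SD between pairs (0.044) in every setting, and ran from -0.036 to 0.0021 on leaving out single libraries, from -0.041 to 0.0066 on leaving out pairs, and to -0.045 in log2(TPM + 1) and -0.047 in log2(TPM + 0.1).

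Estimates near 0 changed sign in some settings. FDX2, 0.02 in RSEM, was -0.59 in the count column without a filter, where it held 4 to 23 fragments, -0.01286 in log2(TPM + 1) and -0.01337 in log2(TPM + 0.1), and ran from -0.0073 to 0.067 when single libraries were left out of RSEM. LYRM4 ran from -0.032 to 0.029, NFS1 from -0.0102 to 0.0635 GLRX5 from -0.066 to 0.0020 and HSCB from -0.10 to -0.0026 on leaving out single libraries; with the block and pairs left out, LYRM4 ran from -0.040 to 0.0130, NFS1 from -0.0048 to 0.043 and HSCB from -0.10 to 0.00012. The log2 ratio of FDX1 to FDX2 differed by 0.30 in the count column, by -0.0745 in RSEM expected counts and by -0.0501 in TPM, and by -0.23 to 0.61 with single libraries left out of the counts. The FDXR to FDX1 ratio kept its direction in every setting, from 0.38 to 0.45 on leaving out libraries. The FDXR to FDX2 difference in the count column, 0.15 to 1.04 on leaving out libraries, rests on 4 to 23 FDX2 fragments and says nothing of stability. With the replicate block as an exact sign-flip of pairs, the FDXR to FDX1 difference of 0.41 had p = 0.25, the smallest 3 pairs allow. In edgeR on counts with TMM and on RSEM, the block over all pairs changed the call of HSPA9 and of no other member. In limma-voom, DESeq2 and with library size alone, ISCU was called with the block and not without it. With pair 2 or pair 3 left out both ISCU and HSPA9 lost their calls under the block, and without pair 3 GLRX5 gained one, at -0.08; the cause of the changes was not tested.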
